A study of Mus musculus with 6 samples.

Results

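The adipogenic transcription factors are the DNA-binding proteins that turn a precursor cell into a fat cell and then hold it in that state. The 8 genes described here were chosen for this function: Pparg, Cebpa, Cebpb, Cebpd, Rxra, Ebf1, Klf4 and Klf5. They had 19 probe sets under their own symbol, of which 16 passed the filter on low signal, and all 8 genes were among the 13040 genes tested. The probe set with the highest mean signal over the arrays stands for its gene.

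The tissue was fat of NOD mice, which become diabetic through autoimmunity, on 6 Affymetrix arrays, 2 for each of 3 groups. AAT-treated fat came from mice given alpha-1-antitrypsin (AAT), an inhibitor of serine proteases in blood, whose diabetes had reverted stably and which needed no insulin. Diabetic fat came from mice with blood glucose above 300 mg/dl for 3 days in a row, and normoglycemic fat from females of 10 weeks with normal blood glucose. The AAT dose, the fat depot, and the age and sex of the AAT-treated and diabetic mice were not given in the sources used here. Nor was it stated that arrays of 1 group are different mice, so the p-values cover only the spread among these samples, and that spread may be technical.

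In cultured precursor cells Cebpb and Cebpd are induced first, Cebpb by cyclic AMP signals and Cebpd by glucocorticoids, and they switch on Pparg and Cebpa, which then maintain each other. PPARG, the nuclear receptor that fat cells need in order to form, binds DNA as a partner of RXRA. KLF4 acts on Cebpb, KLF5 acts on Pparg, and EBF1 works upstream of Pparg and Cebpa. In mature fat PPARG and CEBPA keep genes of lipid uptake, storage and hormone secretion active.

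Promoter sequences of Pparg and Cebpb are shown because these are the genes on which C/EBP proteins and cyclic AMP signals are known to act. RefSeq's table on GRCm38.p6 held 10 start sites for 6 of the 8 genes (Pparg, Cebpa, Cebpb, Rxra, Ebf1 and Klf4). The 250 bases before each start were searched on both strands, and positions count back from the start, the base just before it being −1. The letters searched were TTNNGNAA for C/EBP proteins, a repeat of AGGTCA with 1 base between the copies for the PPARG and RXRA pair, GGGCGG for the GC box that KLF and SP proteins bind, and TGACG for the core of the cyclic AMP response element. Pparg has 3 listed starts on the plus strand of chromosome 6. The windows of start 1 (chr6:115360894-115361143) and start 3 (chr6:115421816-115422065) are printed with C/EBP letters in capitals.
Pparg start 1: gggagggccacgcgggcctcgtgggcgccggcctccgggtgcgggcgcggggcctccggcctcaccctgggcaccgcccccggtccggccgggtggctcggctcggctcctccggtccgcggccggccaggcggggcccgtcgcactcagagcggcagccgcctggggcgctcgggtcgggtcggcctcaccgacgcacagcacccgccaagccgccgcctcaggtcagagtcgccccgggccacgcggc
Pparg start 3: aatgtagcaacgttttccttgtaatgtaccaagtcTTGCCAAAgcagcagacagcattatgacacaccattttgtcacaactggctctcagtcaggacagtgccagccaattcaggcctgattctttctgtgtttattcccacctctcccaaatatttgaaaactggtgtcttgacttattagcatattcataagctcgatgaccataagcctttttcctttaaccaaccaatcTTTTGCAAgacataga
The window of start 3 held the C/EBP letters 2 times, beginning at −215 and −16, and those of starts 1 and 2 held them 0 times. Over all 32851 windows listed, 36.8% held these letters. The Cebpb window, on the plus strand at chr2:167688665-167688914, is printed with the cyclic AMP core in capitals.
Cebpb: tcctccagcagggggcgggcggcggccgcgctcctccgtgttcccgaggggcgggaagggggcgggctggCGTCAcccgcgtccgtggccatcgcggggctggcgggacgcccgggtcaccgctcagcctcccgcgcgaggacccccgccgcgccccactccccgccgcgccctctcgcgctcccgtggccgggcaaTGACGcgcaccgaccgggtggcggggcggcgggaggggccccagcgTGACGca
It held TGACG 3 times, with first bases at −180, −53 and −7, a motif found at least 1 time in 17.8% of all windows. It also held 5 matches to the GC box, some of which overlap, where 32.7% of windows held any. The PPARG and RXRA repeat was in 0 of the 10 windows of these genes and in 0.0335% of all windows. A match is only a run of letters, and binding was not tested.

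The arrays differed in technical measures. For beta-actin, control probe sets at the 3' end gave 9.08 and 5.87 times the signal of those at the 5' end on the AAT-treated arrays, 15.2 and 15.5 times on the diabetic and 3.63 and 4.30 times on the normoglycemic arrays, and a higher ratio goes with broken or shortened RNA. The hybridisation controls averaged 86286 on AAT-treated 2 and 128547 on normoglycemic 1, against 25158 to 48494 on the other 4 arrays. Normoglycemic 1 correlated with the other arrays at 0.755 to 0.839 across genes, and AAT-treated 2 at 0.821 to 0.877. The remaining 4 arrays correlated with each other at 0.898 to 0.931, and no 2 arrays held the same values. Of 6 fat cell markers 4 had a probe set with a single symbol, and Fabp4 and Adipoq were at 85600.2 or more and 15689.8 or more on every array. Cidec was at 17103 or more. Lep, the remaining one, ran unevenly, at 2252 and 63.1 in AAT-treated fat, 18.7 and 9408 in diabetic fat, and 255 and 1299 in normoglycemic fat.

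Of the 8 factors, Cebpd had the smallest p, with less signal in diabetic fat than in both other groups. Pparg was lower in diabetic than in normoglycemic fat by a smaller margin. Cebpa, Ebf1, Klf4 and Klf5 overlapped between the groups in every comparison. By limma with Benjamini-Hochberg adjustment over all 13040 genes, 0 of the 8 passed the threshold of 0.05 in any of the 3 comparisons, and the share of all genes that passed was 0.0% in each.

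**Figure D1:**
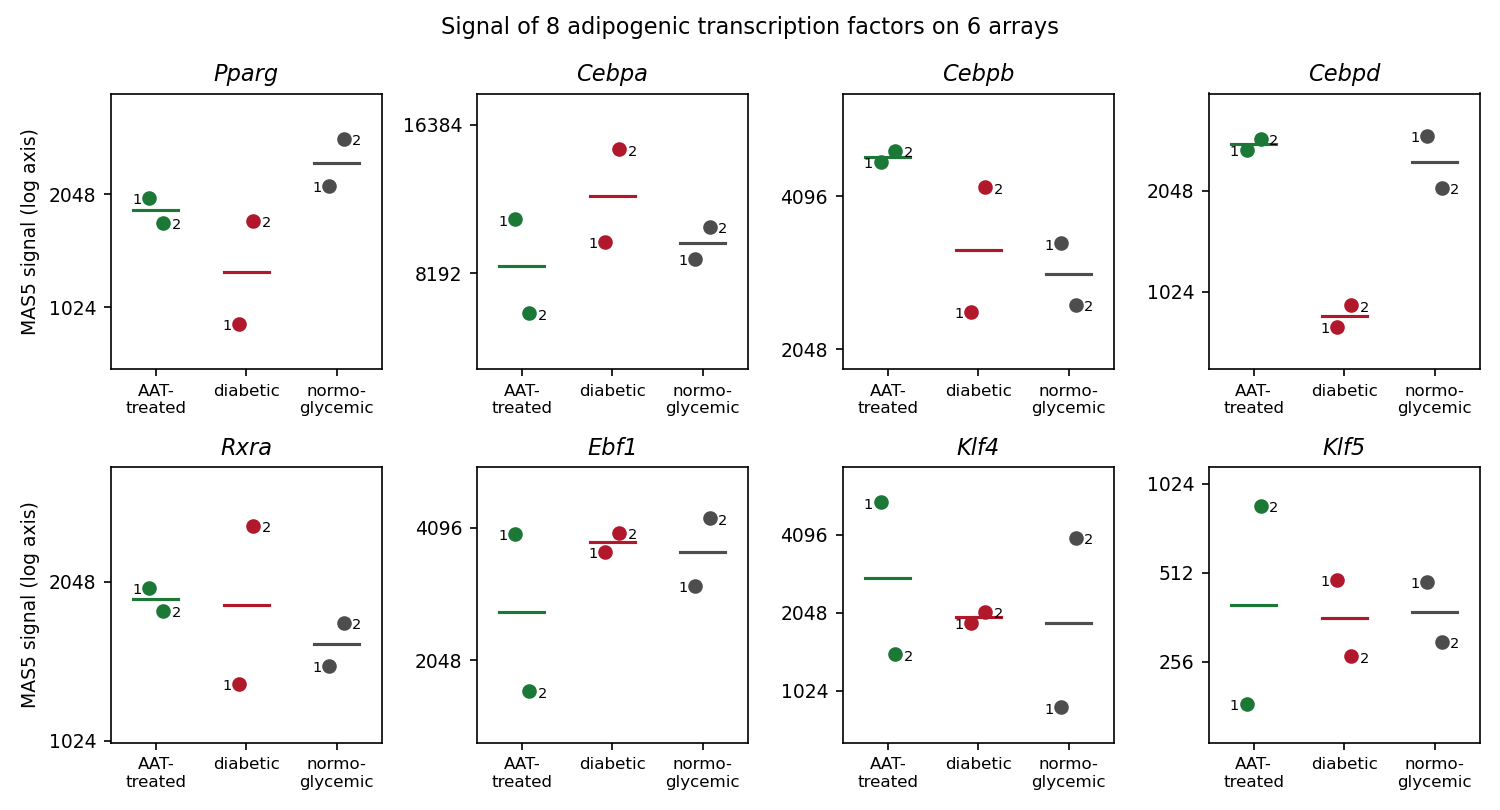
MAS5 signal (log axis) of each factor on the 2 arrays of AAT-treated, diabetic and normoglycemic fat; points are arrays, numbered by replicate, and bars are geometric means. The diabetic arrays of Cebpd, at 804 and 934, lie below all 4 others, and the points of AAT-treated fat lie far apart for Klf4 and Klf5.

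Cebpd encodes the C/EBP protein of the early, hormone-induced phase. Its signals were 2717 and 2922 in AAT-treated fat, 804 and 934 in diabetic fat, and 2994 and 2088 in normoglycemic fat. The diabetic arrays were the 2 lowest of the 6, and AAT-treated and normoglycemic values overlapped. In bulk tissue, fewer cells of a type and less RNA per cell cannot be told apart.

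Between diabetic and normoglycemic fat Cebpd differed by −1.45 ± 0.32 on the log2(signal + 75) scale (SE, n = 2 arrays each; 95% interval −2.18 to −0.72). On that scale it was 2.74-fold lower in diabetic fat. The unadjusted p of limma was 0.00169, with a smaller p for 34 of the 13040 genes, and the adjusted p was 0.459. Between AAT-treated and diabetic fat it differed by 1.62 ± 0.32 (0.89 to 2.35), or 3.07-fold, with a limma unadjusted p of 0.00085, a smaller p for 19 genes, and an adjusted p of 0.554. Both comparisons use the same diabetic arrays, so they are not independent. AAT-treated and normoglycemic fat differed by 0.17 ± 0.32 (−0.56 to 0.90; limma adjusted p = 0.95).

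A second probe set of Cebpd gave 311 and 651 in AAT-treated fat, 368 and 269 in diabetic fat, and 522 and 269 in normoglycemic fat. Its groups overlapped in every pair. It differed by −0.22 for diabetic minus normoglycemic and by 0.44 for AAT-treated minus diabetic fat, in the same directions as the first. With both probe sets averaged, Cebpd differed by −0.83 and 1.03. The diabetic arrays also had the highest beta-actin ratios, and the part of RNA quality in the Cebpd values was not tested.

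The genes whose pattern lay nearest to Cebpd, by root mean square distance of centred log2 values over the 6 arrays, were Zfp36 (0.144), Rtl8c (0.179) and Gabarapl1 (0.185). Zfp36, an mRNA decay factor that stimuli induce rapidly, had 3953 and 3590.2 in AAT-treated fat, 837 and 1066 in diabetic fat, and 3658 and 2447 in normoglycemic fat. Gabarapl1, an autophagy protein, had 6571 and 8854 in AAT-treated fat, 2654 and 2083 in diabetic fat, and 8209.8 and 5321 in normoglycemic fat. For both genes, as for Cebpd, the diabetic arrays were the lowest, which follows from choosing them by likeness to Cebpd.

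**Figure D2:**
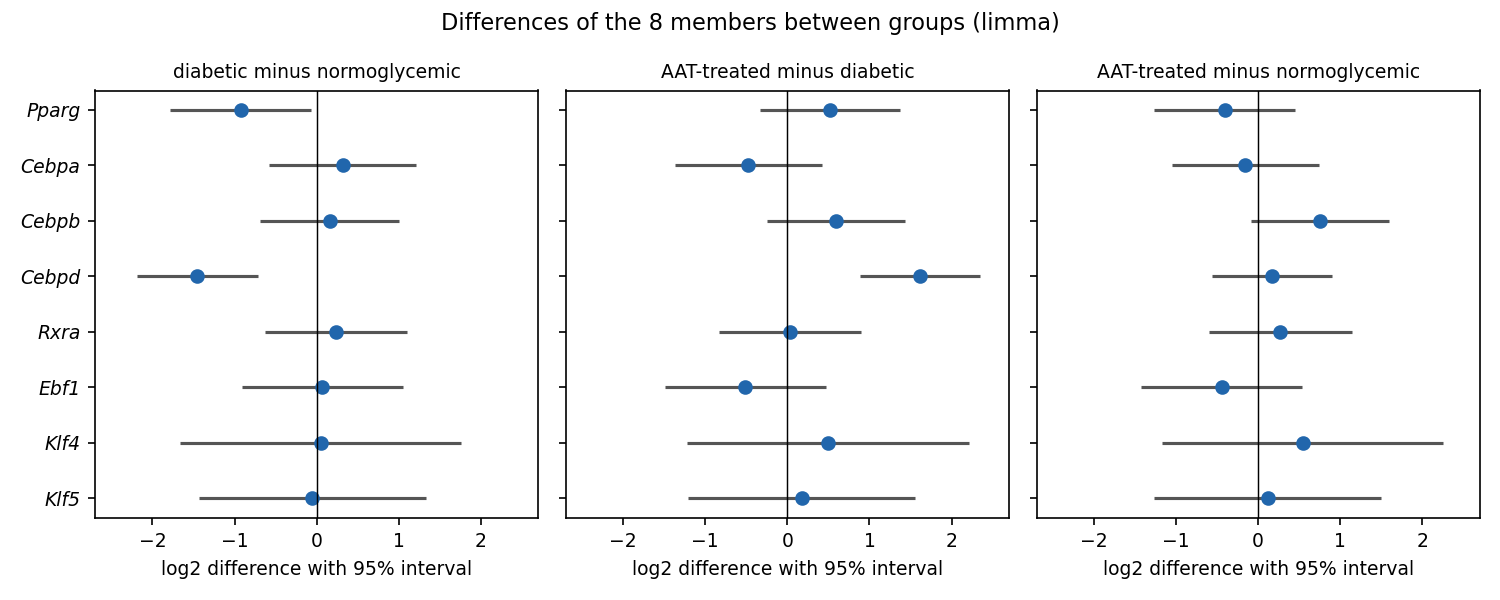
Log2 differences of the 8 factors for each pair of groups; points are limma estimates and lines their 95% intervals. The Cebpd interval lies wholly below 0 for diabetic minus normoglycemic (−2.18 to −0.72) and above 0 for AAT-treated minus diabetic fat (0.89 to 2.35), and the Klf4 and Klf5 intervals are the widest.

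Cebpb encodes the other C/EBP protein of the early phase, with the cyclic AMP cores shown above in its promoter. Its signals were 4777 and 5028 in AAT-treated fat, 2427 and 4265 in diabetic fat, and 3309.6 and 2507 in normoglycemic fat. The AAT-treated arrays were the 2 highest, and diabetic 1 was the lowest of all. Cebpb differed by 0.75 ± 0.37 between AAT-treated and normoglycemic fat (−0.09 to 1.59; limma unadjusted p = 0.0736, adjusted p = 0.923). It differed by 0.59 ± 0.37 (−0.25 to 1.44) between AAT-treated and diabetic fat and by 0.16 ± 0.37 (−0.68 to 0.998) between diabetic and normoglycemic fat.

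A second Cebpb probe set had 631 and 972 in AAT-treated fat, 448 and 819 in diabetic fat, and 1044 and 613 in normoglycemic fat. Its groups overlapped in every pair, so that the separation of AAT-treated fat was seen with 1 of the 2 probe sets. Its difference between AAT-treated and normoglycemic fat was −0.03, and with both probe sets averaged that of the gene was 0.36. Between diabetic and normoglycemic fat this probe set differed by −0.36, the opposite sign to the first. The nearest patterns were Ifi204 (0.0774), Calcoco1 (0.124) and C1s1 (0.136). Ifi204 is induced by interferons, and C1s1 encodes a complement protease. Macrophages also express Cebpb, and their 6 markers, all kept and none at 0, summed to 11989.5 and 7449.9 in AAT-treated fat, 11061 and 22117 in diabetic fat, and 4985 and 4987 in normoglycemic fat. The macrophage sums of AAT-treated and of diabetic fat lay above those of normoglycemic fat, as did Csf1r, C1qb and Mrc1 singly. Other markers did not follow the sum throughout. Adgre1 had 541 and 780 in AAT-treated, 1032 and 937 in diabetic, and 899 and 588 in normoglycemic fat. Cd68 had 350 and 459 in AAT-treated, 231 and 655 in diabetic, and 383 and 312 in normoglycemic fat. C1qa on diabetic 1, at 571, lay below normoglycemic 1, at 823. The part of macrophages in the Cebpb values was not tested.

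Pparg, the nuclear receptor at the centre of the fat cell program, had 1 probe set. Its signals were 1996 and 1717 in AAT-treated fat, 927 and 1735 in diabetic fat, and 2151 and 2865 in normoglycemic fat. Both normoglycemic arrays lay above the other 4, and diabetic 1 lay well below the rest. Pparg differed by −0.93 ± 0.37 (−1.78 to −0.07) between diabetic and normoglycemic fat, 1.90-fold lower in diabetic fat, with a limma unadjusted p of 0.0371 and an adjusted p of 0.495. A smaller p was found for 975 genes.

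The Pparg signal of AAT-treated fat averaged between those of the other groups. It differed by 0.52 ± 0.37 (−0.34 to 1.37) from diabetic fat and by −0.41 ± 0.37 (−1.26 to 0.45) from normoglycemic fat. The arrays of diabetic fat were 0.85 apart on the log2 scale, where the median gene was 0.36 apart. Without diabetic 1, the difference between diabetic and normoglycemic fat was −0.50, and without diabetic 2 it was −1.35. The nearest patterns were Trappc6b (0.0912), Vta1 (0.109) and Dcaf12 (0.138), of which Trappc6b and Vta1 serve vesicle and endosome traffic.

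Rxra encodes the partner that PPARG needs to bind DNA. It had 1996 and 1802 in AAT-treated fat, 1312 and 2611 in diabetic fat, and 1419 and 1713 in normoglycemic fat. The diabetic arrays were the lowest and the highest of all 6, so that this group spanned both others, while the AAT-treated arrays lay above the normoglycemic ones. Rxra differed by 0.24 ± 0.38 (−0.63 to 1.11) between diabetic and normoglycemic fat, by 0.03 ± 0.38 (−0.84 to 0.90) between AAT-treated and diabetic fat, and by 0.27 ± 0.38 (−0.60 to 1.14) between AAT-treated and normoglycemic fat. The second kept probe set gave −0.26 for AAT-treated minus normoglycemic and −0.44 for AAT-treated minus diabetic fat, both of the opposite sign. Another lay under the filter at 33.7 or less. The nearest patterns were Nt5c (0.0793), Tmem106a (0.0878) and Map2k3 (0.0899).

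Cebpa, the C/EBP protein of mature fat cells, also had 1 probe set. Its signals were 10532 and 6782 in AAT-treated fat, 9481 and 14611 in diabetic fat, and 8749 and 10162 in normoglycemic fat. Diabetic 2 was the highest and AAT-treated 2 the lowest, and the groups overlapped in every pair. Cebpa differed by 0.32 ± 0.39 (−0.58 to 1.21) between diabetic and normoglycemic fat, by −0.47 ± 0.39 (−1.37 to 0.42) between AAT-treated and diabetic fat, and by −0.16 ± 0.39 (−1.05 to 0.74) between AAT-treated and normoglycemic fat. The limma unadjusted p was 0.259 or more in all 3 comparisons.

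Nearest to Cebpa in pattern were Atp5k (0.0629), Lipe (0.0733) and Zfp975 (0.0747). Atp5k encodes a subunit of ATP synthase, and Lipe is the hormone-sensitive lipase of mature fat cells. Lipe had 10850.1 and 6533 in AAT-treated fat, 9089 and 14312 in diabetic fat, and 9734 and 10364 in normoglycemic fat. As for Cebpa, diabetic 2 was the highest and AAT-treated 2 the lowest array, which follows from choosing Lipe by likeness to Cebpa. Pparg was highest on normoglycemic 2 and lowest on diabetic 1.

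Ebf1 encodes a factor of fat precursors that B cells also need. The probe set that stands for it had 3976 and 1740.0 in AAT-treated fat, 3617 and 3986 in diabetic fat, and 3025 and 4305 in normoglycemic fat. AAT-treated 2 was the lowest array by far, and the groups overlapped. The difference was −0.51 ± 0.43 (−1.49 to 0.47) between AAT-treated and diabetic fat, −0.44 ± 0.43 (−1.42 to 0.54) between AAT-treated and normoglycemic fat, and 0.07 ± 0.43 (−0.91 to 1.05) between diabetic and normoglycemic fat. The nearest patterns were Ddx23 (0.0652), Gcn1 (0.0897) and Cept1 (0.0908).

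The other 3 kept probe sets of Ebf1 had the opposite sign in AAT-treated minus diabetic fat, at 0.37 to 0.50. In diabetic minus normoglycemic fat they lay at −1.01 to −0.30, against 0.07 for the one that stands for the gene. The probe set with the largest of these differences had 1235 and 940.5 in AAT-treated fat, 522 and 1038 in diabetic fat, and 1384 and 1765 in normoglycemic fat, both diabetic arrays below both normoglycemic ones. Since the probe sets disagreed in sign, no direction is given for Ebf1.

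The B cell list, with 5 of 6 genes on the array and 3 kept, summed to 20061 and 5032 in AAT-treated fat, 943 and 2731 in diabetic fat, and 1289 and 1128 in normoglycemic fat. Most of the AAT-treated sum was Ighm, the heavy chain of immunoglobulin M, at 19419 and 3925. The other 2 kept genes did not follow it. Pax5, a B cell transcription factor, had 163 and 270.3 in AAT-treated fat, 201 and 49.6 in diabetic fat, and 429 and 279.8 in normoglycemic fat, and Ms4a1, which encodes CD20, had 214 and 535 in AAT-treated fat, 242 and 388 in diabetic fat, and 535 and 346 in normoglycemic fat. The B cell receptor genes Cd79a and Cd79b were under the filter, at 358 or less and 197 or less, and none of the 5 was at 0. The part of B cells in the Ebf1 values was not tested.

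**Figure D3:**
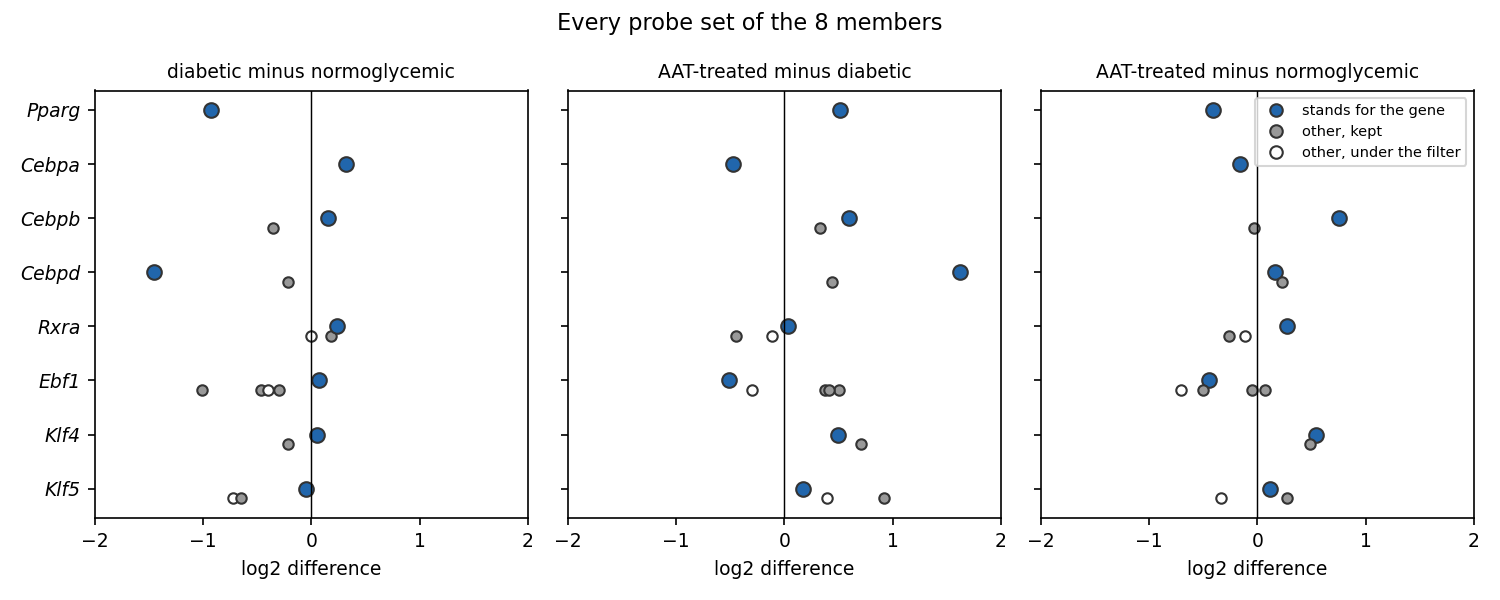
Log2 differences of all 19 probe sets of the 8 factors, for each pair of groups: blue points stand for the gene, grey points are other kept probe sets, and open points lay under the signal filter. For Ebf1 in AAT-treated minus diabetic fat the blue point is at −0.51 and the 3 grey points at 0.37 to 0.50, and for Cebpd the grey point lies nearer to 0 than the blue one for diabetic minus normoglycemic and for AAT-treated minus diabetic fat.

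Klf4 encodes a zinc finger protein that acts on Cebpb in precursors and is also expressed in the lining of blood vessels. Its signals were 5472 and 1413 in AAT-treated fat, 1873 and 2059.7 in diabetic fat, and 882 and 3978 in normoglycemic fat. The arrays of AAT-treated fat were 1.90 apart on the log2 scale and those of normoglycemic fat 2.08, where the median gene was 0.48 and 0.46 apart. The group differences were within this spread. They were 0.05 ± 0.75 (−1.66 to 1.76) between diabetic and normoglycemic fat, 0.49 ± 0.75 (−1.22 to 2.21) between AAT-treated and diabetic fat, and 0.54 ± 0.75 (−1.17 to 2.26) between AAT-treated and normoglycemic fat.

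A second Klf4 probe set, with 2833 and 626 in AAT-treated fat, 735 and 872 in diabetic fat, and 578 and 1517 in normoglycemic fat, had the same high and low arrays. Between diabetic and normoglycemic fat it differed by −0.22, against 0.05 for the first. The endothelial markers Pecam1, Cdh5, Kdr, Tek and Egfl7, all 5 kept, summed to 16529.8 and 3259 in AAT-treated fat, 12611 and 7797 in diabetic fat, and 1642 and 17369 in normoglycemic fat. AAT-treated 1 and normoglycemic 2 were thus the highest, and AAT-treated 2 and normoglycemic 1 the lowest, for Klf4 and for this sum alike. Between the diabetic arrays they ran in opposite directions, with Klf4 higher on diabetic 2 and the sum higher on diabetic 1. Kdr was also higher on diabetic 1 (4656) than on AAT-treated 1 (4396), and none of the 5 markers was at 0. AAT-treated 2 and normoglycemic 1 were also the arrays with the brightest hybridisation controls. The part of either in the Klf4 values was not tested. Nearest to Klf4 in pattern were Pmepa1 (0.193), Slc9a3r2 (0.193) and Tm4sf1 (0.208).

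Klf5, a zinc finger protein that acts on Pparg and is abundant in epithelia, had 184 and 862 in AAT-treated fat, 484 and 267 in diabetic fat, and 476 and 299 in normoglycemic fat. The AAT-treated arrays were the lowest and the highest of all 6. Klf5 differed by −0.05 ± 0.60 (−1.44 to 1.33) between diabetic and normoglycemic fat, by 0.17 ± 0.60 (−1.21 to 1.56) between AAT-treated and diabetic fat, and by 0.12 ± 0.60 (−1.26 to 1.502) between AAT-treated and normoglycemic fat. These intervals leave room for large differences in both directions.

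The second kept Klf5 probe set was at 182 and 636 in AAT-treated fat, 249.9 and 80.9 in diabetic fat, and 435 and 169 in normoglycemic fat, again highest on AAT-treated 2. The epithelial markers Epcam, Krt8, Krt18, Krt5, Krt14 and Cdh1, of which 5 of 6 were kept, summed to 1412 and 10906 in AAT-treated fat, 2813 and 1526 in diabetic fat, and 3361 and 1413 in normoglycemic fat. On AAT-treated 2 the keratin Krt18 was at 5149.5, against 482 to 1395 on the other arrays, and the adhesion gene Cdh1 at 1466, against 24.4 to 106. Krt8 and Krt5 also peaked there, at 2237 and 1742. The other 2 markers did not: Epcam was lowest on AAT-treated 2, at 153, against 154 to 409 on the other arrays, and Krt14 was at 158 there, against 84.1 to 297. Within each group the array with more Klf5 had the higher sum, and none of the 6 markers was at 0. The mesothelial markers, all 5 kept, summed to 5437 and 7580 in AAT-treated fat, 4165 and 3621 in diabetic fat, and 3846 and 2684 in normoglycemic fat. Of these Krt19 and Wt1 peaked on AAT-treated 2, at 2501 and 2193, while Msln, Upk3b and Lrrn4 were lower there than on AAT-treated 1. The part of epithelial or mesothelial cells in the Klf5 values was not tested. Nearest to Klf5 in pattern were Pmch (0.0637), Stpg3 (0.112) and Pigr (0.121). Pigr, a receptor that carries antibodies across epithelia, had 107 and 551 in AAT-treated fat, 292 and 208 in diabetic fat, and 286 and 172 in normoglycemic fat.

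**Figure D4:**
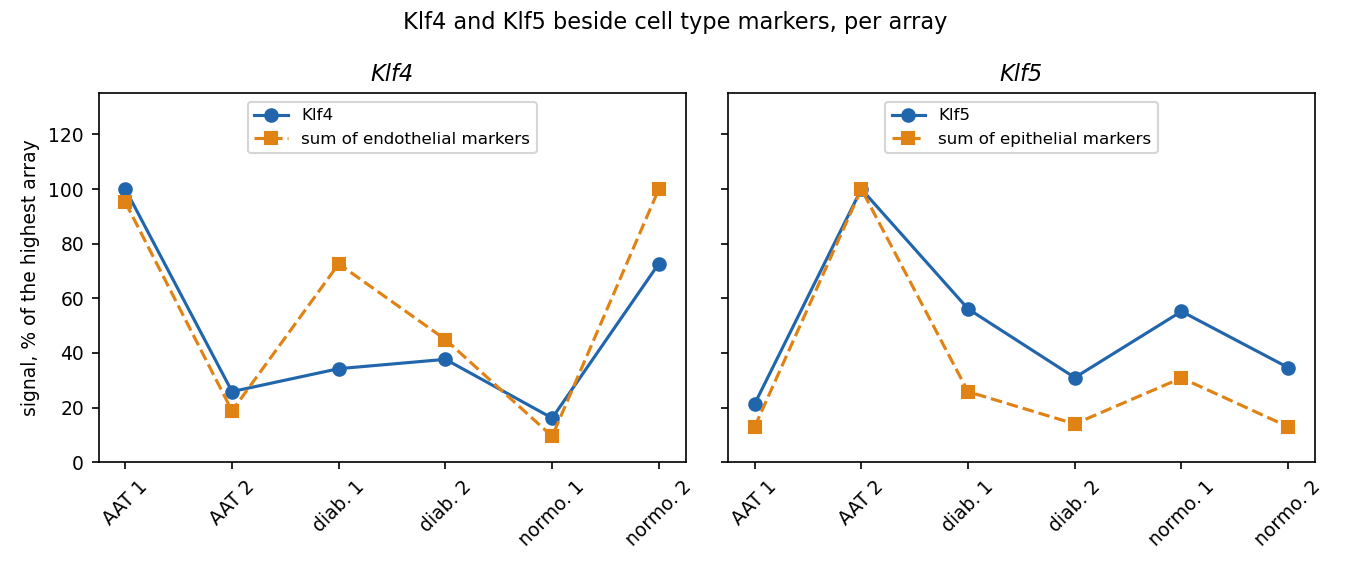
Klf4 with the summed endothelial markers (left) and Klf5 with the summed epithelial markers (right), each array as a percentage of the highest array. Klf4 and the endothelial sum are both lowest on normoglycemic 1 (882 and 1642), and Klf5 and the epithelial sum both peak on AAT-treated 2 (862 and 10906). Between the diabetic arrays Klf4 and the endothelial sum run in opposite directions.

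Across the 8 factors, diabetic and normoglycemic fat did not overlap for 2, Cebpd and Pparg, both lower in diabetic fat. Among all genes 44.7% did not overlap (20.2% higher and 24.5% lower), so 2 of 8 is under the background. Cebpd and Pparg also had a limma unadjusted p under 0.05, as had 9.9% of all genes (5.28% higher and 4.62% lower). The unadjusted p of Pparg was above 0.05 without diabetic 1 (0.25), without normoglycemic 2 (0.164) and without AAT-treated 2 (0.0503), which leaves Cebpd as 1 of 8. The median difference of the 8 was 0.06, against −0.06 over all genes, with 3 lower. Without diabetic 2 the median was −0.13, with 5 lower, and without normoglycemic 1 it was −0.03.

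AAT-treated and diabetic fat did not overlap for 2 of 8, Cebpd and Cebpb, both higher in AAT-treated fat. Among all genes 33.8% did not overlap (17.9% higher and 15.9% lower). Cebpd alone of the 8 had a limma unadjusted p under 0.05, as had 4.77% of all genes (2.94% higher and 1.83% lower). Of the 8 factors 6 were higher, with a median of 0.33, against 0.01 over all genes. Without AAT-treated 1, 4 were higher and the median was 0.19. The median was 0.14 without diabetic 1 and 0.53 without diabetic 2.

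AAT-treated and normoglycemic fat did not overlap for 3 of 8, against 32.1% of all genes. Cebpb and Rxra were higher in AAT-treated fat (all genes 16.1%) and Pparg lower (all genes 16.1%). A limma unadjusted p under 0.05 was found for 0 of 8 and for 5.12% of all genes (3.4% higher and 1.72% lower). The median of the 8 was 0.14, against −0.03 over all genes. It was −0.10 without AAT-treated 1, −0.06 without normoglycemic 1 and −0.07 without normoglycemic 2.

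Genes that PPARG and CEBPA are known to drive in fat cells mostly had less signal in AAT-treated fat than in either other group. Of the 26 on the list 22 were kept. Against normoglycemic fat 20 of 22 were lower, with a median of −0.43, where 48% of all genes were higher and the rest lower. Against diabetic fat 17 of 22 were lower, with a median of −0.54, where 51.2% of all genes were higher and the rest lower. Both counts rested on AAT-treated 2. Without it 11 of 22 were lower against normoglycemic fat (median 0.0087) and 10 of 22 against diabetic fat (median 0.05). By limma 0 of 22 passed over all genes in any comparison. The 6 smooth muscle markers, all kept and none at 0, summed to 53459.5 and 81932 in AAT-treated fat, 13683 and 9476 in diabetic fat, and 6777 and 28146 in normoglycemic fat, so that they, like the epithelial sum above, were highest on AAT-treated 2. The fat cell markers summed to 142616 and 274340 in AAT-treated, 141351 and 230451 in diabetic, and 423782 and 238906 in normoglycemic fat. Only normoglycemic 1 was above AAT-treated 2 in this sum, most of which was Fabp4, at 229987 on AAT-treated 2. Adipoq was lowest on that array, at 15690, while Cidec was at 28600 and Lep at 63.1. Fabp4, Adipoq and Cidec are on the target list too. The part of any of these cell types in the values of the target genes was not tested.

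Agpat2, an acyltransferase of triglyceride synthesis, had 1841 and 1183 in AAT-treated fat, 7501 and 10563 in diabetic fat, and 2884 and 2119 in normoglycemic fat. The diabetic arrays were far above the other 4. It differed by −2.53 ± 0.37 between AAT-treated and diabetic fat (limma unadjusted p = 0.0001, adjusted p = 0.327), by 1.82 ± 0.37 between diabetic and normoglycemic fat, and by −0.71 ± 0.37 between AAT-treated and normoglycemic fat. Gpd1, which makes the glycerol backbone of fat, differed by −1.84 ± 0.39 between AAT-treated and diabetic fat and by −1.003 ± 0.39 between AAT-treated and normoglycemic fat.

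Pck1, which makes glycerol for storage in fat and is a classical PPARG target, ran the other way. It had 19920.1 and 27499.8 in AAT-treated fat, 5102 and 14139 in diabetic fat, and 18205 and 24811 in normoglycemic fat. The diabetic arrays were the lowest, as for Cebpd, with differences of 1.45 ± 0.52 for AAT-treated minus diabetic and −1.31 ± 0.52 for diabetic minus normoglycemic fat.

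Between diabetic and normoglycemic fat 16 of 22 target genes were higher, with a median of 0.23, where 46.4% of all genes were higher. Without diabetic 2, 10 were higher (median −0.06), and without normoglycemic 1 also 10 (median −0.25). Dgat2, the last enzyme of triglyceride synthesis, was at 6906 and 30799.8 in diabetic fat, against 2888 and 3376 in normoglycemic fat, a difference of 2.20 ± 0.65. The glucose transporter Slc2a4 was at 2335 and 4046 in diabetic fat, against 1494 and 1369.8 in normoglycemic fat, a difference of 1.07 ± 0.46. Lpl, which frees fatty acids from lipoproteins, and the hormone gene Adipoq differed by −0.94 ± 0.51 and −1.01 ± 0.55 between AAT-treated and normoglycemic fat.

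**Figure D5:**
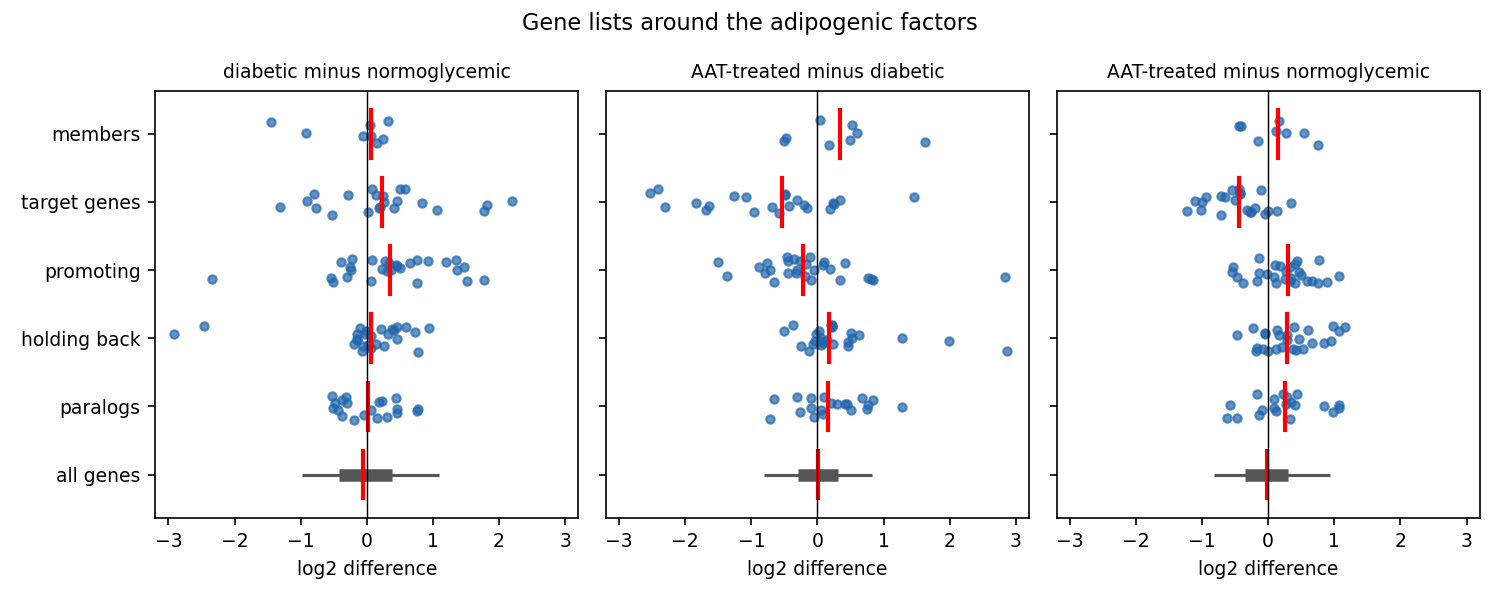
Log2 differences of the 8 factors (members) and of 4 lists of related genes for each pair of groups; blue points are genes and red bars medians, and the grey bar gives all 13040 genes, thick for the interquartile range and thin from the 5th to the 95th percentile. Target genes have medians of 0.23, −0.54 and −0.43 in the 3 panels, against −0.06, 0.01 and −0.03 for all genes.

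Other factors and cofactors that promote fat cell formation numbered 31, of which 28 were kept. Of these 20 were higher in diabetic than in normoglycemic fat (median 0.35), and 19 were lower in AAT-treated than in diabetic fat (median −0.23). Without AAT-treated 2 the second count was 13 (median 0.11). In AAT-treated against normoglycemic fat 20 were higher (median 0.30), or 16 with AAT-treated 1 left out (median 0.09). Among all genes 46.4% were higher in diabetic than in normoglycemic fat (median −0.06). In AAT-treated fat 51.2% of all genes were higher than in diabetic fat (median 0.01) and 48.0% higher than in normoglycemic fat (median −0.03). By limma 0 of 28 passed over all genes in any comparison.

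Srebf1, a regulator of fatty acid synthesis genes, had 2240.1 and 1520.5 in AAT-treated fat, 5445 and 5289.5 in diabetic fat, and 2189 and 1889 in normoglycemic fat. The diabetic arrays were the highest, the opposite of Cebpd. It differed by 1.37 ± 0.32 between diabetic and normoglycemic fat and by −1.502 ± 0.32 between AAT-treated and diabetic fat. Zfp467, a zinc finger protein that favours fat over bone cells, differed by 1.48 ± 0.41 between diabetic and normoglycemic fat, and the nuclear factor Nfia by 1.78 ± 0.55. Fos, a subunit of the AP-1 factor, had 4021 and 2618 in AAT-treated fat, 189.5 and 751 in diabetic fat, and 2383 and 2200.0 in normoglycemic fat. Its diabetic arrays were the lowest, as for Cebpd.

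Factors that hold fat cell formation back numbered 32, with 26 kept. Of these 15 were higher in diabetic than in normoglycemic fat (median 0.07), 19 in AAT-treated than in diabetic fat (median 0.17) and 18 in AAT-treated than in normoglycemic fat (median 0.28), with 0 of 26 past the threshold by limma. The shares of all genes that were higher were 46.4%, 51.2% and 48.0%, in the same order. Egr1, an immediate early factor, had 11184 and 5425 in AAT-treated fat, 640.4 and 1541 in diabetic fat, and 7993 and 8115 in normoglycemic fat. It differed by −2.92 ± 0.49 between diabetic and normoglycemic fat and by 2.87 ± 0.49 between AAT-treated and diabetic fat.

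Irf4, which also works in immune cells, had 509 and 2178 in AAT-treated fat, 355 and 119 in diabetic fat, and 2351 and 964 in normoglycemic fat. Egr1 and Irf4, named for their small p, thus shared the low diabetic arrays of Cebpd, which are also those with the highest beta-actin ratios. Srebf1 and Agpat2, named by the same rule, had their highest signals on these arrays, and the part of RNA quality was not tested. Irf4 differed by 1.99 ± 0.69 for AAT-treated minus diabetic and by −2.46 ± 0.69 for diabetic minus normoglycemic fat. Foxo1, the forkhead factor that insulin restrains, had 5224 and 4147 in AAT-treated fat, 3761 and 4197 in diabetic fat, and 1972 and 2859.9 in normoglycemic fat. Its AAT-treated arrays lay above both normoglycemic ones, with a difference of 0.95 ± 0.33. The diabetic arrays of Foxo1 also lay above both normoglycemic ones, with a difference of 0.72 ± 0.33.

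Relatives of the 8 factors from the same families numbered 23, with 20 kept and 0 of 20 past the threshold by limma, and some of them are on the lists above too. Between diabetic and normoglycemic fat 10 were higher and 10 lower, with a median of 0.01. In AAT-treated fat 13 were higher than in diabetic fat (median 0.15) and 14 higher than in normoglycemic fat (median 0.25). The shares of all genes that were higher in these comparisons were 46.4%, 51.2% and 48.0%, in the same order. Klf9, a glucocorticoid-induced factor that favours fat cell formation, had 26284 and 25722 in AAT-treated fat, 16034 and 14661 in diabetic fat, and 12058 and 12724 in normoglycemic fat. Its AAT-treated arrays were the 2 highest, and it differed by 1.07 ± 0.35 from normoglycemic fat (limma unadjusted p = 0.0146, adjusted p = 0.89) and by 0.76 ± 0.35 from diabetic fat.

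Klf3, a repressor of Cebpa, had 3379 and 3865 in AAT-treated fat, 1685 and 1245 in diabetic fat, and 1149.9 and 2419 in normoglycemic fat. Its AAT-treated arrays were also the 2 highest, with a difference of 1.28 ± 0.40 from diabetic fat. Klf15, another glucocorticoid-induced factor, had 1061 and 1585 in AAT-treated fat, 578 and 821 in diabetic fat, and 1065 and 974 in normoglycemic fat. Its diabetic arrays were the lowest, as for Cebpd, and it differed by 0.84 ± 0.34 between AAT-treated and diabetic fat and by −0.52 ± 0.34 between diabetic and normoglycemic fat. Ebf2, the relative of Ebf1 in brown fat precursors, had 2054 and 514 in AAT-treated fat, 1900.5 and 1507 in diabetic fat, and 902 and 1049 in normoglycemic fat. AAT-treated 2 was its lowest array, as it was for the probe set standing for Ebf1.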

How the data were processed

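The deposited values were linear intensities, 1 per probe set and array. Per the submitters' processing notes the authors used MAS5, a version of it not being named in the sources used here. It scales arrays, and the trimmed mean (2% off each end) was 500.0 on all 6. Of 45101 probe sets, 64 were controls, 34945 had 1 gene symbol, 932 several and 9160 none, and 34741 matched RefSeq's gene table. Several or no symbol meant exclusion.

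Signals were taken as log2(signal + 75), which understates differences of weak genes. Probe sets with a mean above the 40th percentile (164) were kept, and the brightest stood for its gene, giving 13040 genes. Groups were compared with limma 3.58.1 in R 4.3.3 (3 group means over 6 arrays, eBayes with trend, 2-sided, Benjamini-Hochberg within each contrast, threshold 0.05), with 3 residual and 5.36 prior degrees of freedom, and the fit was checked on simulated data. The number of arrays limits precision. An exact permutation test of 2 against 2 arrays cannot go below p = 0.333, so none was run. Alternatives were another pseudocount, no filter, quantile normalization, averaged probe sets, 4-array fits, a hybridisation control covariate, a replicate block and each array left out.

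The genes and lists were chosen with earlier results of these data known. Beside the 8 factors, the genes eligible to be named were, of each list, the 4 with the smallest unadjusted p in each comparison, and the 3 nearest in pattern to each factor. Cell type markers came from fixed lists.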

Additional observations from a re-analysis of the deposited data

How the results depend on the processing

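With 2 arrays a group, 1 array can set a value. The 24 differences (8 factors in 3 comparisons) were each taken under 13 alternatives. Of the 312 values 280 kept their sign and 32 turned, in 14 of the 24 differences. Many of the 312 could not turn. With no filter on low signal, with only the compared arrays fitted and with the replicate block, the estimates equalled the main ones. So did those without an array of the group not compared. Pparg and Cebpa had 1 probe set each, so averaging left them unchanged too. The count of kept signs thus overstates stability. In every alternative but those leaving an array out, 0 factors passed the adjusted threshold. Cebpd ran from −1.70 to −0.83 in diabetic minus normoglycemic fat (limma adjusted p 0.172 to nearly 1) and from 1.03 to 1.72 in AAT-treated minus diabetic fat (limma adjusted p 0.269 to nearly 1), with the smallest sizes where its probe sets were averaged, and its unadjusted p stayed at 0.0361 or less. Pparg ran from −1.35 to −0.50 in diabetic minus normoglycemic fat (limma adjusted p 0.459 to nearly 1), with an unadjusted p of 0.0116 to 0.25, above 0.05 with the hybridisation covariate (0.055) and without diabetic 1, normoglycemic 2 or AAT-treated 2. Some log2 differences turned with the processing. In diabetic minus normoglycemic fat these were Cebpb −0.10, Ebf1 −0.43 and Klf4 −0.084 with all kept probe sets averaged, Ebf1 −0.44, Klf4 −1.16 and Klf5 0.63 with the hybridisation controls as a covariate and Klf5 0.021 with quantile normalization. In AAT-treated minus diabetic fat these were Rxra −0.21 and Ebf1 0.19 with all kept probe sets averaged and Klf5 −0.052 with the hybridisation controls as a covariate. In AAT-treated minus normoglycemic fat these were Klf4 −0.26 with the hybridisation controls as a covariate. Others turned when 1 array was left out, and their ranges over the 6 arrays left out in turn were Cebpb −0.24 to 0.55, Rxra −0.24 to 0.72, Ebf1 −0.18 to 0.32, Klf4 −0.99 to 1.09 and Klf5 −0.41 to 0.30 in diabetic minus normoglycemic fat, Rxra −0.45 to 0.51, Ebf1 −1.09 to 0.065, Klf4 −0.45 to 1.44 and Klf5 −0.76 to 1.10 in AAT-treated minus diabetic fat, and Cebpa −0.47 to 0.16, Cebpd −0.085 to 0.42, Ebf1 −1.02 to 0.14, Klf4 −0.50 to 1.59 and Klf5 −0.81 to 1.05 in AAT-treated minus normoglycemic fat. The cause of these turns was not tested. Over all genes limma called 0 in each comparison, with 1291, 622 and 668 genes at an unadjusted p under 0.05 in diabetic minus normoglycemic, AAT-treated minus diabetic and AAT-treated minus normoglycemic fat. With the hybridisation covariate it called 1 (Hbb-b2) in diabetic minus normoglycemic and 1 (Anp32a) in AAT-treated minus diabetic fat, and with no filter 1 (Anp32a) in AAT-treated minus diabetic fat. Over the arrays left out it called 0 to 3 in AAT-treated minus normoglycemic fat, the 3 being Ephx1, Myh11 and Phf3 without normoglycemic 2. These genes were named after their values were seen. With the replicate number as a block, 0 genes were called. The block cannot change a group difference, because every group holds both numbers, and only the p-values moved. For Cebpd the limma unadjusted p became 0.00475 in diabetic minus normoglycemic and 0.00262 in AAT-treated minus diabetic fat. Replicate numbers only name arrays here: same-numbered arrays deviated from their group means with correlations of −0.116, −0.506 and 0.0752 across genes. The list counts without each array were added after seeing the data.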
